A study of Homo sapiens with 4 samples.

Results

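The subject is a set of 36 genes of glucose and pyruvate use in human embryonic stem cells: the transporters that carry glucose in and lactate out, the enzymes of glycolysis, those that pass pyruvate on to lactate or to the mitochondrion, and enzymes of the pentose phosphate pathway. The members were given as a list of symbols, with no threshold on a measured value, but the list was drawn up with earlier results of these data known. It covers 490 of the 242542 annotated transcripts that could be matched to a gene, and 36 of 62218 genes. H1 is an established human embryonic stem cell line. Primed H1 cells (labelled TesR) were grown in mTeSR1 on Matrigel at normal oxygen. Naïve cells (labelled FINE) were derived from the primed H1 line and kept at 5% oxygen on Matrigel with reduced growth factors. Their medium held dasatinib, AZD5438, SB590885, PD0325901, Y-27632, LIF, activin A and bFGF. Each state is represented by 2 Nanopore cDNA libraries of a single line, and nothing says whether the replicates were separate cultures, so the spread between them may be technical.

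Glycolysis splits glucose into pyruvate in the cytosol. Most of its steps can be run by any of several isoenzymes, which are proteins from different genes that catalyse the same reaction but differ in tissue and regulation. Lactate dehydrogenase turns pyruvate into lactate, while the pyruvate dehydrogenase complex turns it into acetyl-CoA inside the mitochondrion, and pyruvate dehydrogenase kinases shut that complex off by phosphorylation. Naïve and primed pluripotent cells are known for a different balance of glycolysis and respiration, and many genes of the pathway are targets of the oxygen-sensing HIF transcription factors. The 2 states differed in oxygen and in inhibitors as well as in identity, and the effects of state, oxygen and medium cannot be told apart.

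The libraries held 153647482 and 161548901 counts in the naïve state and 129276054 and 132927036 in the primed state. A count is an alignment that overlaps any part of the span of a transcript, introns included and strand ignored. The value of a gene is the count of its transcript with the largest mean, called the counted transcript below. For 11 of the 36 members this is not the MANE Select transcript, which is the reference transcript shared by Ensembl and RefSeq, and both are given where they part. The spans of 27 members overlap another gene, and those of 17 overlap a transcript of at least 10 percent of their count, so that reads of such neighbours cannot be told apart from theirs. Markers followed the labels: 8 of 8 naïve markers were lower and 8 of 8 primed markers higher in primed libraries, although KLF17, a naïve marker, turned to 0.23 in log2 fold change, without a call, with library size as the scale. Of 11 trophoblast markers, 10 were higher in the naïve libraries, where the summed level of all 11 was 2112 and 2457 CPM (counts divided by a library size that TMM, a trimmed mean of ratios between libraries, has scaled) against 9.96 and 9.57 in the primed libraries, and with library size as the scale 9 of the 11 were higher there. Chorionic gonadotropin alpha (CGA) fell from 35747 and 47550 naïve counts to 0 and 1 primed counts, and VGLL1 was at 0 in both primed libraries. Whether those transcripts come from other cells in the naïve cultures, and what they add to the levels of the glycolytic genes, was not tested. In bulk libraries, fewer cells of a type and less RNA per cell cannot be told apart.

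In the gene test, 9 of the 35 members tested rose in primed cells (25.7%), where 37.4% of all 27633 genes rose, and 15 fell (42.9%), where 32.6% of all genes fell (edgeR's quasi-likelihood test with TMM scaling, adjusted p under 0.05). The median log2 fold change was -0.24 over the members and 0.08 over all genes. The split depends on the scale. With library size in place of TMM, the median of all genes moved up by 0.638, and 19 members were higher (56.2% of all genes) and 5 lower (16.3% of all genes). The calls that held on both scales were HK1, PFKM, PFKFB3, ENO2, LDHB, SLC16A1, PDK1, PDK2 and PDK3, which rose, and PFKL, PFKFB4, SLC16A3, PDHA1 and TALDO1, which fell. Of the other 10 members called lower with TMM, 9 were not called by library size and ENO3 was called higher. PDK4, with naïve counts of 0 and 0 and primed counts of 1 and 2, was too low to test. On the MANE Select transcript, 9 members were higher (37.6% of all genes) and 14 lower (32.8%).

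**Figure D1:**
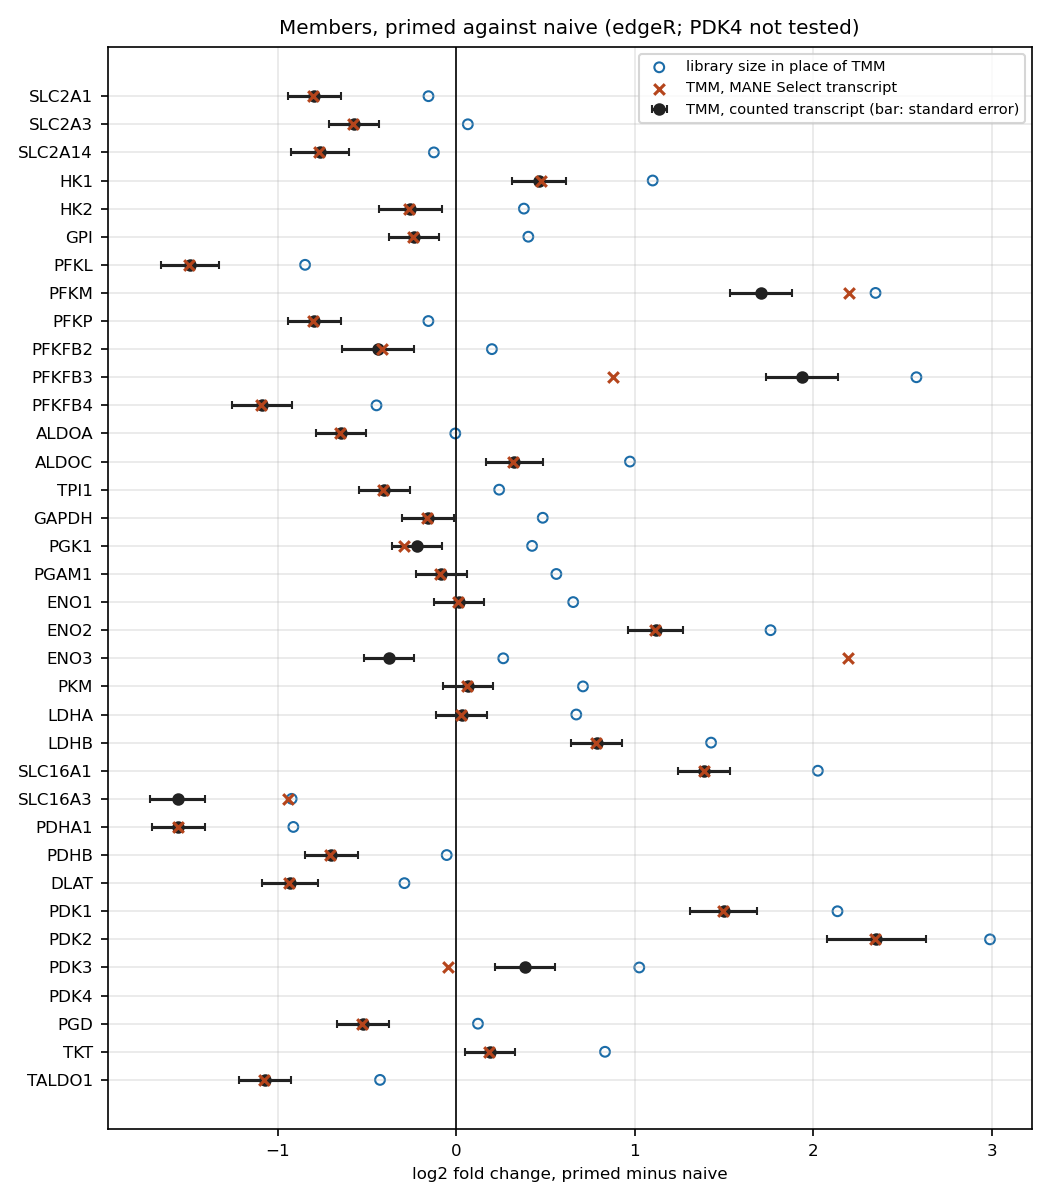
Log2 fold change (primed minus naïve) of each member from edgeR with TMM on the counted transcript (filled points, bars are standard errors), with library size as the scale (open circles) and on the MANE Select transcript (crosses). Library size moves all points to the right by a like amount, and the crosses leave the filled points mainly at PFKM, PFKFB3, ENO3, SLC16A3 and PDK3.

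A ratio of isoenzymes within a library is free of that scale. The shares below divide the count of each isoenzyme by its exonic length and by the sum over its family in the same library. A count is an alignment anywhere on a span, so the division favours transcripts with few exonic bases. The divided shares are therefore not shares of molecules. In naïve libraries SLC16A3 held 81.37% of its family with division and 53.35% without. Over 9 families, 10 isoenzymes in 5 families changed their share by more than 10 percentage points, namely in phosphofructokinase, the PFKFB enzymes, lactate dehydrogenase, the monocarboxylate transporters and the pyruvate dehydrogenase kinases. For all 10, both naïve libraries lay on the same side of both primed libraries. The same 10 isoenzymes passed that limit with MANE Select transcripts. Without division by length 9 of them did, and PDK1 (12.5 points) took the place of PDK2 (9.33 points). Without primed replicate 1, LDHB moved by 8.96 points and LDHA by -8.96, which is within the limit. The leading isoenzyme itself differed between the states in 2 of the 9 families with counted transcripts (SLC16A3 to SLC16A1 and PDK3 to PDK2), but in 0 with MANE Select transcripts. Without division by length it differed in 3, which were the monocarboxylate transporters again, lactate dehydrogenase (LDHA to LDHB) and the PFKFB enzymes (PFKFB4 to PFKFB3), and PDK3 then led its family in both states. With 2 libraries against 2, an exact permutation test cannot go below p = 0.333, so the shares are given with their spread and no test.

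**Figure D2:**
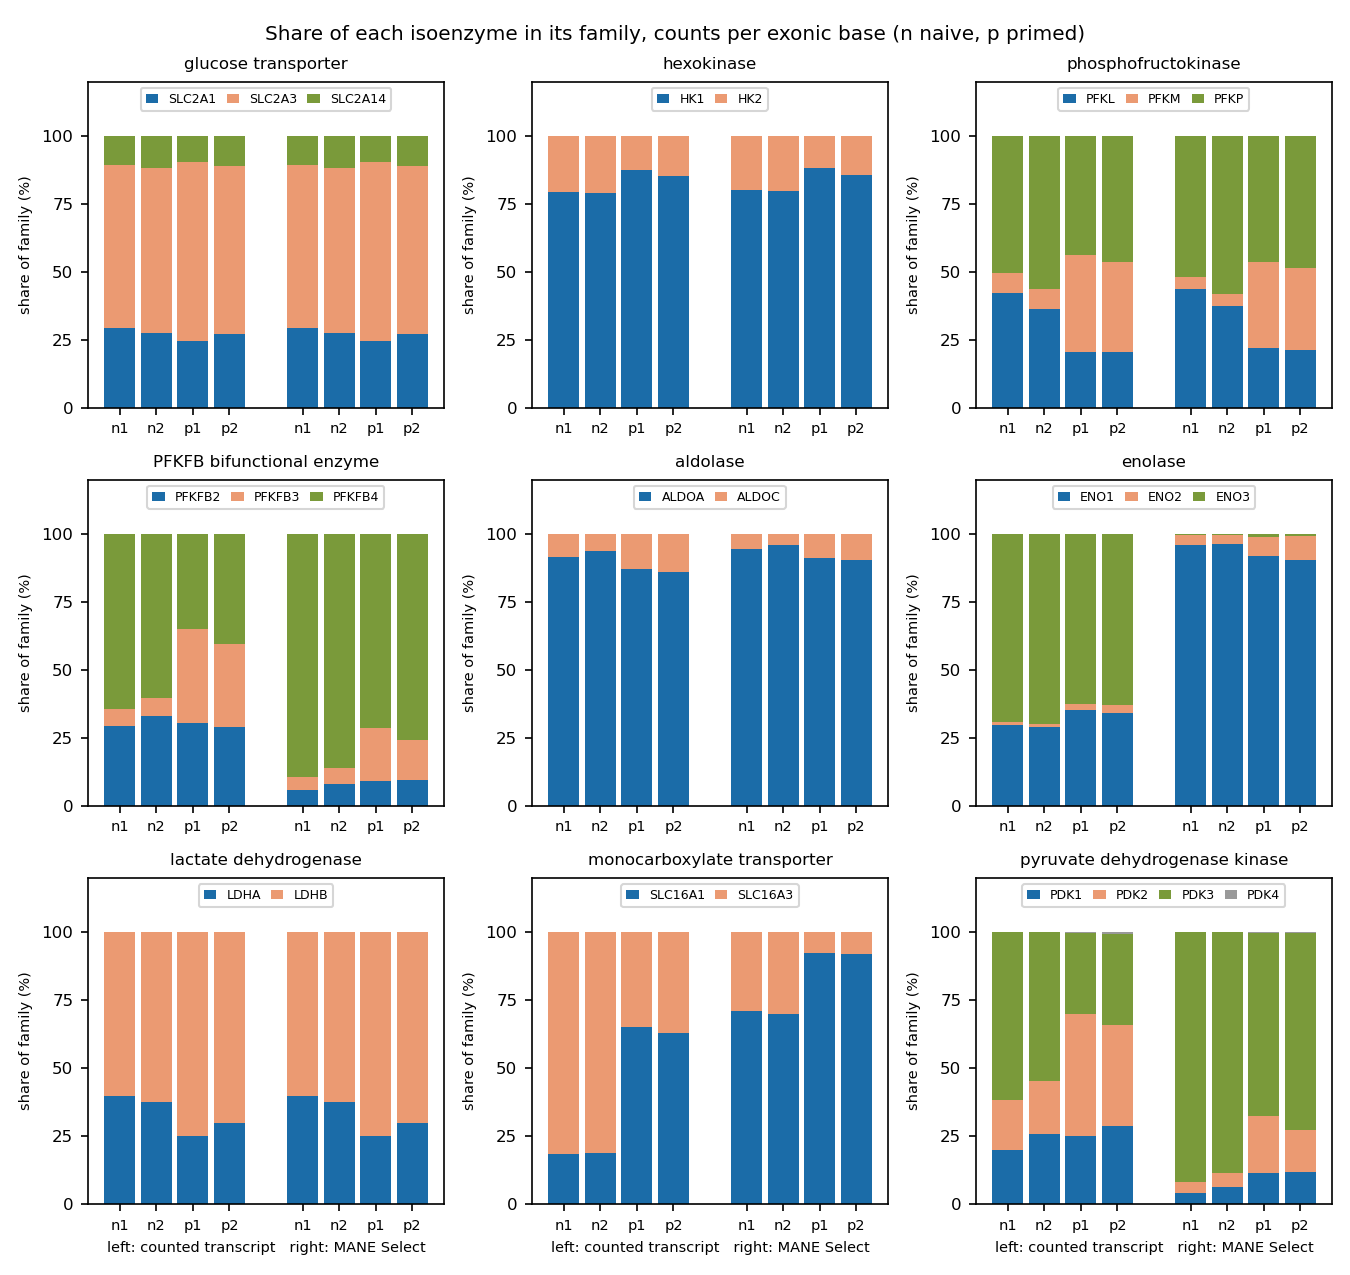
Share (%) of each isoenzyme in its family in each naïve (n1, n2) and primed (p1, p2) library, as counts per exonic base, with the counted transcripts on the left and the MANE Select transcripts on the right of each panel. The primed bars differ from the naïve bars for phosphofructokinase, PFKFB, monocarboxylate transporter and pyruvate dehydrogenase kinase on both sides, while the enolase panel depends on which ENO3 transcript is counted.

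Glucose enters these cells through facilitative transporters. SLC2A3, the high-affinity transporter GLUT3 of neurons and early embryos, had 2711 and 3139 counts in naïve libraries and 2360 and 2502 in primed libraries. On the TMM scale that was 120 ± 3.90 CPM (SD, n = 2) against 81.0 ± 1.01, and the states did not overlap. It fell by 0.57 in log2 fold change (adjusted p = 4.49e-04, edgeR), but stood at 0.07 by library size, where it was not called, and at -0.39 without a call when primed replicate 1 was left out. SLC2A1, the widely expressed GLUT1, had 1171 and 1261 counts against 777 and 962 and fell by 0.79 (adjusted p = 9.31e-06), with -0.15 and no call by library size. SLC2A14, a duplicate of SLC2A3 next to it on chromosome 12, had 431 and 548 against 309 and 405 counts and a log2 fold change of -0.76, which was -0.12 and not called by library size, and -0.44 and not called without primed replicate 1. The balance among the 3 moved little: SLC2A3 made up 60.4% ± 0.44 of the family in naïve and 63.9% ± 2.79 in primed libraries.

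Reads that align at both SLC2A14 and its twin cannot be told apart. The coding sequences of SLC2A3-201 (1491 bases) and SLC2A14-203 (1494 bases) were 96.5% identical over 1491 bases, with 52 differences. The stretch with most differences is shown because every alignment of a read was counted, also where a read aligned at both genes. It sets bases 1 to 90 of SLC2A3-201 against bases 4 to 93 of SLC2A14-203. Capitals mark the 10 bases that differ (GENCODE on GRCh38, minus strand, chr12:7933828-7936034 and chr12:7832740-7869877, introns left out).
SLC2A3-201: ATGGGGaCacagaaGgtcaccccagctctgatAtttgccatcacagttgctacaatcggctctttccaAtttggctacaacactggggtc
SLC2A14-203: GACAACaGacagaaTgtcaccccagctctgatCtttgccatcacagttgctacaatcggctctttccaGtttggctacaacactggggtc
The ratio of SLC2A14 to SLC2A3 counts was 0.159 and 0.175 in naïve libraries and 0.131 and 0.162 in primed libraries, which overlap.

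Hexokinase traps glucose in the cell as glucose 6-phosphate. HK1, the widespread form, had 599 and 810 counts in naïve and 1201 and 1194 in primed libraries, or 28.9 ± 4.09 against 39.9 ± 1.32 CPM. It rose by 0.47 in log2 fold change (SE 0.15, adjusted p = 5.87e-03), a call that was lost without naïve replicate 1 (0.27). HK2, the inducible form of muscle and of many tumours, had 229 and 313 against 253 and 307 counts and overlapped between the states, with a log2 fold change of -0.26 (SE 0.17, adjusted p = 0.188) that turned to 0.38 by library size without a call. HK1 therefore outnumbered HK2 by count in each library, by 2.62 and 2.59 times in naïve and by 4.75 and 3.89 times in primed libraries. Next in the chain, GPI, which makes fructose 6-phosphate, had 3421 and 3453 against 3447 and 3792 counts. Its log2 fold change was -0.24 and not called, and 0.40 with a call by library size. With summed transcripts it was called lower instead, at -0.54 (adjusted p = 4.85e-03, edgeR).

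Phosphofructokinase, the committed step, showed the widest exchange of isoenzymes within glycolysis. PFKM, the muscle form, had 140 and 145 counts in naïve libraries and 613 and 540 in primed libraries. PFKL, the liver form, went the other way, with 789 and 698 against 339 and 319 counts. PFKP, the platelet form, had 854 and 984 against 655 and 655 counts. PFKM rose by 1.71 in log2 fold change (SE 0.17, adjusted p = 1.10e-11), PFKL fell by 1.49 (SE 0.16, adjusted p = 6.46e-11), and PFKP fell by 0.79, with -0.16 and no call by library size. Per length, PFKM made up 7.27% ± 0.02 of the family in naïve and 34.6% ± 1.72 in primed libraries, PFKL 39.2% ± 4.23 and 20.4% ± 0.07, and PFKP 53.5% ± 4.21 and 45.01% ± 1.79. PFKP thus led in both states, but PFKM passed PFKL in the primed libraries.

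The counted span of PFKM, PFKM-219 at chr12:48105139-48146079, starts inside the gene SENP1 on the other strand, and some of its counts could be SENP1 alignments. The MANE Select transcript PFKM-203, whose span overlaps no gene of comparable count, had 85 and 90 counts in naïve and 524 and 477 in primed libraries. On it PFKM rose by 2.20 (adjusted p = 1.56e-17), more than on the counted transcript. The ratio of PFKM to PFKL counts on MANE Select transcripts was 0.108 and 0.129 in naïve libraries and 1.546 and 1.495 in primed libraries.

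The PFKFB enzymes make and break fructose 2,6-bisphosphate, the strongest activator of phosphofructokinase. PFKFB3, the form with the highest kinase over phosphatase activity, had 68 and 66 counts in naïve and 317 and 320 in primed libraries. PFKFB4, a form of testis and of tumour cells, had 574 and 505 against 271 and 361 counts. PFKFB3 rose by 1.94 in log2 fold change (SE 0.20, adjusted p = 2.39e-11) and PFKFB4 fell by 1.09 (SE 0.17, adjusted p = 2.45e-07). PFKFB2, the heart form, had 141 and 149 against 126 and 139 counts and missed the threshold (log2 fold change -0.44, adjusted p = 0.0513), with 0.20 by library size. Per length, PFKFB3 made up 6.51% ± 0.16 of the 3 in naïve and 32.4% ± 3.004 in primed libraries, and PFKFB4 62.2% ± 2.80 and 37.8% ± 3.90.

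The size of the PFKFB3 change depended on the transcript. The counted span, PFKFB3-205 at chr10:6144934-6235532, runs far upstream of MANE Select PFKFB3-203 at chr10:6202932-6235532 and ends with it. On PFKFB3-203 the counts were 38 and 43 against 96 and 89, and the gene rose by 0.88 (adjusted p = 2.84e-03). The alignments that touch the counted span but not the MANE Select span lie at chr10:6144934-6202931, upstream of the reference start. There were 30 and 23 of them in naïve libraries, or 44.1% (95% Wilson interval 33.0% to 55.9%) and 34.9% (24.5% to 46.9%) of the gene's alignments. In primed libraries there were 221 and 231, or 69.7% (64.5% to 74.5%) and 72.2% (67.0% to 76.8%). These intervals cover counting error only. An isoform that starts in that region and ends beyond it (chr10:6163833-6217177) had 49 and 50 against 257 and 250 counts. Its fraction among PFKFB3 isoforms, as counts per exonic length, was 15.6% ± 0.24 in naïve and 25.4% ± 1.89 in primed libraries (adjusted p = 0.0260 by edgeR's isoform test).

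Aldolase splits the sugar. ALDOA, the muscle and general form, had 15193 and 14843 against 11962 and 11839 counts and fell by 0.65 in log2 fold change (adjusted p = 8.41e-05), with -0.00447 and no call by library size. ALDOC, the brain form, had 872 and 619 against 1133 and 1204 counts, a log2 fold change of 0.33 (adjusted p = 0.0682), and was called higher by library size at 0.97. ALDOA held 92.8% ± 1.51 of the pair per length in naïve and 86.6% ± 0.58 in primed libraries. At the start of ALDOA, the short transcript ALDOA-204 (chr16:30064164-30064840) went from 74 and 65 counts to 1427 and 1431. These were 0.487% and 0.438% of the counts of the counted transcript in naïve libraries and 11.9% and 12.1% in primed libraries. Its fraction among ALDOA isoforms, as counts per exonic length, was 0.0421% ± 0.00312 in naïve and 1.10% ± 0.0185 in primed libraries. ALDOA-204 overlaps another gene on the other strand, which had 63 and 60 against 1424 and 1430 counts.

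The trunk of the pathway, which lacks alternatives among the members, held the most abundant member. GAPDH, which makes the first high-energy phosphate, had 62568 and 57059 counts in naïve and 68305 and 64844 in primed libraries, or 2477 ± 337 against 2220 ± 146 CPM, the highest level of any member. Its states overlapped on that scale, and its log2 fold change of -0.16 was not called (SE 0.14, adjusted p = 0.331). TPI1, which interconverts the 3-carbon sugars, had 12401 and 11038 against 11212 and 10827 counts and fell by 0.40 (adjusted p = 0.0115), a call that was lost without naïve replicate 1 (-0.30), primed replicate 1 (-0.29) or primed replicate 2 (-0.18) and turned to 0.24, not called, by library size. PKM, the last enzyme of glycolysis, had 8476 and 8363 against 11358 and 10527 counts and a log2 fold change of 0.07 (adjusted p = 0.673). The PKM1 and PKM2 products of PKM cannot be told apart here, since their transcripts share a span and PKM-202 and PKM-203 had equal counts in each library. By library size, GAPDH (0.49) and PKM (0.71) were called higher.

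PGK1 and PGAM1 show how a retrocopy enters the count of a neighbour. PGK1, which makes ATP, had 14255 and 13148 counts in naïve and 14715 and 14560 in primed libraries on PGK1-206, whose span at chrX:77910739-78126949 takes in the gene PGAM4. PGAM4, an intronless copy of PGAM1, had 4550 and 4156 against 5336 and 4901 counts. PGAM1, which moves the phosphate to the next carbon, had 4699 and 4304 against 5469 and 5092. The ratio of PGAM4 to PGAM1 counts was 0.968 and 0.966 in naïve and 0.976 and 0.963 in primed libraries, so it stayed within 0.0133 across libraries.

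Their coding sequences, 765 bases each, were 98.3% identical with 13 differences. The stretch with most differences is shown, with the 4 differing bases in capitals, because it is what a read must resolve (GENCODE on GRCh38, chr10:97431099-97432407 on the plus strand with its intron left out, and chrX:77968991-77969080 on the minus strand).
PGAM1-201: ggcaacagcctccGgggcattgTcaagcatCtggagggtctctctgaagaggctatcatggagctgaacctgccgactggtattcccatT
PGAM4-201: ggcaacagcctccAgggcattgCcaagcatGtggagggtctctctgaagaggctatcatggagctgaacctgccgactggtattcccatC
On PGK1-201, the MANE Select transcript at chrX:78104248-78129295 outside PGAM4, the counts were 9645 and 8922 against 9324 and 9583, with a log2 fold change of -0.29 (adjusted p = 0.0615). PGK1-206 gave -0.22 (adjusted p = 0.166) and PGAM1 -0.08 (adjusted p = 0.620), and by library size both were called higher, at 0.43 and 0.56.

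Enolase makes phosphoenolpyruvate. ENO1, the general form, had 12300 and 12239 against 15718 and 14994 counts and a log2 fold change of 0.01 (adjusted p = 0.933). ENO2, the neuronal form, had 651 and 585 against 1499 and 1841 counts and rose by 1.12 (SE 0.15, adjusted p = 2.14e-08). ENO3, the muscle form, seemed abundant, with 11437 and 11787 against 11153 and 11003 counts, but its counted transcript ENO3-209 (chr17:4948252-4955220) starts inside PFN1, the profilin gene on the other strand, which had 11902 and 12257 against 11522 and 11552 counts. On the MANE Select transcript ENO3-207 (chr17:4951119-4957129), beyond PFN1, ENO3 had 26 and 25 counts in naïve and 170 and 120 in primed libraries. There it rose by 2.19 (SE 0.28, adjusted p = 1.05e-10), where the counted transcript gave -0.38 with TMM, 0.26 by library size, and no call without primed replicate 1 (-0.25) or primed replicate 2 (-0.17). With MANE Select transcripts ENO1 held 96.0% ± 0.27 of the family per length in naïve and 91.2% ± 1.05 in primed libraries, and ENO2 3.75% ± 0.26 and 7.72% ± 1.28.

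**Figure D3:**
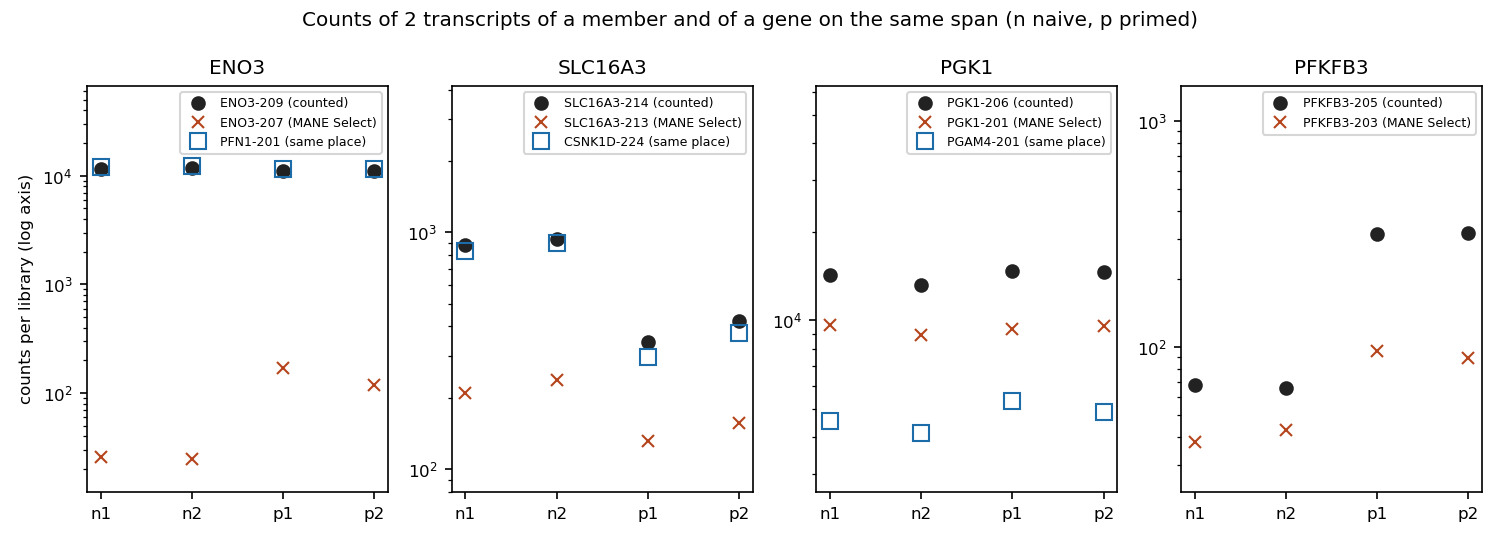
Counts (log axis) in the naïve (n1, n2) and primed (p1, p2) libraries for the counted transcript (filled circles), the MANE Select transcript (crosses) at ENO3, SLC16A3, PGK1 and PFKFB3, and for a gene on the same span (squares) at the first 3 of these. The ENO3 and SLC16A3 circles lie on or close above or below the squares of PFN1 and CSNK1D, and the ENO3 crosses rise from 26 and 25 to 170 and 120 counts.

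At the end of glycolysis, lactate dehydrogenase shifted towards its heart form. LDHB, whose tetramers favour the use of lactate, had 6151 and 6215 counts in naïve and 14077 and 12332 in primed libraries. LDHA, whose tetramers favour the making of lactate, had 6936 and 6473 against 8065 and 8961 counts. LDHB rose by 0.79 in log2 fold change (SE 0.14, adjusted p = 5.00e-06), and LDHA stood at 0.03 (SE 0.14, adjusted p = 0.856), or 0.67 with a call by library size. LDHB counts were 0.887 and 0.960 times those of LDHA in naïve libraries and 1.75 and 1.38 times in primed libraries. Per length, LDHB led in both states, with 61.3% ± 1.33 and 72.7% ± 3.33.

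The monocarboxylate transporters carry lactate across the membrane. SLC16A1 (MCT1), which works in both directions, had 764 and 828 counts in naïve libraries and 2431 and 2726 in primed libraries. SLC16A3 (MCT4), the exporter of highly glycolytic cells, had 882 and 938 against 343 and 422 counts. SLC16A1 rose by 1.39 (SE 0.15, adjusted p = 3.45e-11) and SLC16A3 fell by 1.56 (SE 0.16, adjusted p = 7.45e-12). Per length, SLC16A1 made up 18.6% ± 0.20 of the pair in naïve and 63.9% ± 1.51 in primed libraries.

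The lead of SLC16A3 in naïve cells did not survive the change of transcript. SLC16A3-214 (chr17:82237170-82261129) encloses CSNK1D-224, a transcript of a kinase gene on the other strand, which had 831 and 897 against 297 and 374 counts. The MANE Select transcript of SLC16A3 (chr17:82229042-82240086) overlaps it only at one end and had 209 and 237 against 132 and 157 counts. There SLC16A3 fell by 0.94 (SE 0.19, adjusted p = 1.44e-05), and SLC16A1 led in both states, with 70.5% ± 0.53 and 92.3% ± 0.25. SLC16A1 outnumbered SLC16A3 by count 3.51 and 3.39 times in naïve and 17.7 and 16.9 times in primed libraries on these transcripts.

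The 3 members of the pyruvate dehydrogenase complex fell on the TMM scale. PDHA1, the catalytic alpha subunit on the X chromosome, had 3998 and 3608 counts in naïve and 1686 and 1528 in primed libraries, or 158 ± 22.6 against 53.6 ± 5.27 CPM, and fell by 1.56 in log2 fold change (SE 0.15, adjusted p = 2.22e-12). PDHB, its beta partner, had 3870 and 3194 against 2838 and 2581 counts and fell by 0.70 (adjusted p = 7.22e-05). DLAT, the acetyltransferase core, had 566 and 620 against 400 and 370 counts and fell by 0.93 (adjusted p = 1.53e-06). By library size PDHA1 stayed lower (-0.91), while PDHB (-0.05) and DLAT (-0.29) were not called, and PDHB was not called without primed replicate 2 (-0.44). The PDHA1 and PDHB proteins pair in equal numbers in the enzyme, but protein was not measured here. The ratio of their RNA counts, not divided by length, was 1.03 and 1.13 in naïve libraries and 0.594 and 0.592 in primed libraries. The PDHB span encloses a gene on the other strand, which had 3619 and 2934 against 2701 and 2442 counts.

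Of the kinases that inactivate the complex, PDK1 and PDK2 rose under each scale and transcript choice, while the PDK3 call was not kept in several of them and PDK4 was not tested. PDK1 had 95 and 125 counts in naïve libraries and 348 and 421 in primed libraries. PDK2 had 21 and 23 against 148 and 131 counts, and PDK3 265 and 241 against 373 and 448. PDK2 rose by 2.35 (SE 0.28, adjusted p = 6.43e-10), the widest change of any member on its counted transcript, PDK1 rose by 1.499 (SE 0.19, adjusted p = 2.38e-09), and PDK3 rose by 0.38 (SE 0.17, adjusted p = 0.0406), but was not called with DESeq2 (0.33, adjusted p = 0.160) or summed transcripts (0.09, adjusted p = 0.688). Per length, PDK3 held 58.1% ± 4.90 of the family in naïve and 31.7% ± 2.71 in primed libraries, and PDK2 19.1% ± 0.90 and 41.0% ± 5.32, so that PDK2 led in the primed state per length. By count alone PDK3 led there too, with 43.8% ± 1.30 against 41.0% ± 1.43 for PDK1 and 15.0% ± 2.78 for PDK2. The counted PDK3 transcript has 12720 exonic bases and that of PDK2 3364. Per length, PDK1 held 22.8% ± 4.01 in naïve and 26.9% ± 2.43 in primed libraries.

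These spans also touch other genes. PDK1 shares its start with PDK1-AS1 on the other strand, which had 85 and 157 against 603 and 629 counts, and PDK2 overlaps SAMD14 at its end, which had 8 and 9 against 119 and 96. What part of the PDK1 and PDK2 counts lies in those overlaps was not tested. The PDK3 call was lost without naïve replicate 1 (0.47), naïve replicate 2 (0.19) or primed replicate 2 (0.44). It rested on alignments past the end of its MANE Select transcript (chrX:24534423-24550466), of which there were 10 and 29 in naïve and 122 and 132 in primed libraries. On MANE Select PDK3-201, the counts were 255 and 212 against 251 and 316 and the log2 fold change was -0.04 (adjusted p = 0.841). With these transcripts PDK3 led in both states per length, with 90.2% ± 2.32 and 70.0% ± 3.33. By count alone on MANE Select transcripts, PDK3 led in naïve libraries with 63.8% ± 6.96. PDK1 then led in primed libraries, with 47.5% ± 1.32 against 34.9% ± 1.96 for PDK3.

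Of the pentose phosphate members, TALDO1, the transaldolase of the non-oxidative branch, had 5157 and 4915 counts in naïve and 3162 and 2791 in primed libraries and fell by 1.07 in log2 fold change (SE 0.15, adjusted p = 1.80e-08), as it did by library size (-0.43). PGD, which releases carbon dioxide and NADPH in the oxidative branch, had 2725 and 2582 against 2435 and 2153 counts and fell by 0.52 (adjusted p = 1.71e-03), with no call by library size (0.12) or without primed replicate 2 (-0.24). TKT, the transketolase partner of TALDO1, had 6385 and 6105 against 9211 and 8476 counts and a log2 fold change of 0.19 (adjusted p = 0.225), or 0.83 with a call by library size and 0.44 with a call without primed replicate 2.

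**Figure D4:**
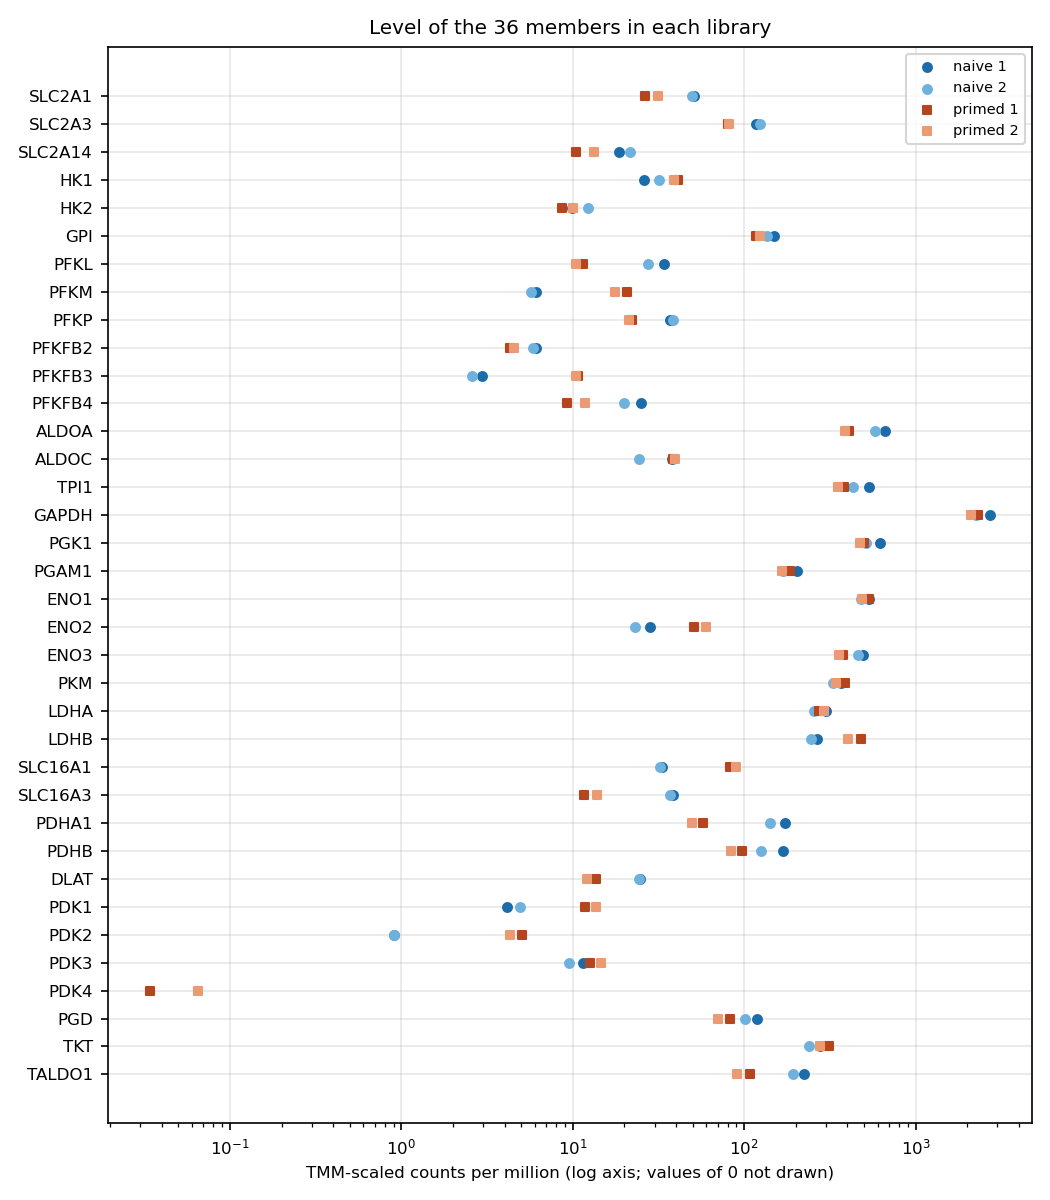
TMM-scaled CPM (log axis) of each member in the naïve (circles) and primed (squares) libraries, in pathway order from glucose entry at the top to the pentose phosphate genes at the bottom. GAPDH is highest and PDK4, drawn in the primed libraries only because its naïve counts are 0, is lowest, and the circles and squares part at PDK2, PFKFB3, PFKM, SLC16A3, PDHA1, PDK1, PFKL and SLC16A1, which had the widest log2 fold changes of the members called.

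Isoform usage gave no call among the members. Of 483 member isoforms tested, 0 passed an adjusted p under 0.05 with a change of isoform fraction beyond 0.1, against 0.556% of all 159577 isoforms (edgeR's diffSpliceDGE), and 0 did so with DESeq2, against 0.874% of all isoforms. At an unadjusted p under 0.05 there were 35 member isoforms with edgeR, where 9.72% of all isoforms passed, and 55 with DESeq2, where 15.0% did. By the adjusted p alone 21 isoforms in 5 genes passed, where 4.27% of all isoforms did. ENO3 gave 15 of them, all on spans beyond PFN1, and the others were in ALDOA, PFKFB3, SLC2A1 and SLC2A3. SLC2A3-209, a transcript of the last bases of SLC2A3 (chr12:7919231-7919750), had 1381 and 1572 against 1805 and 1914 counts, so that 50.9% and 50.1% of SLC2A3-201 alignments reached it in naïve libraries and 76.5% and 76.5% in primed libraries. Its isoform fraction went from 15.6% ± 0.58 to 23.7% ± 2.20 (adjusted p = 9.86e-04).

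Of the other genes of these pathways, 44 of 53 were tested. In primed cells 21 rose (47.7%, against 37.4% of all genes) and 14 fell (31.8%, against 32.6%). Their median log2 fold change was 0.29. By library size 28 rose (63.6%, against 56.2% of all genes) and 6 fell (13.6%, against 16.3%). The isoenzyme exchange extended to fructose 1,6-bisphosphatase, which reverses the phosphofructokinase step. FBP1 had 90 and 89 counts in naïve and 14 and 22 in primed libraries and fell by 2.62 (adjusted p = 5.30e-10), while FBP2 had 12 and 14 against 176 and 148 and rose by 3.32 (adjusted p = 4.34e-13). TIGAR, a phosphatase of sugar phosphates, fell by 1.64. PGM1, a phosphoglucomutase, which links glucose 6-phosphate to glycogen, had 88 and 110 against 717 and 681 counts and rose by 2.52. PGM2, a related gene, fell by 1.25. MPC1, a subunit of the mitochondrial pyruvate carrier, had 805 and 762 against 211 and 238 counts and fell by 2.12 (adjusted p = 3.40e-15). Its partner MPC2, chosen after its value was seen, fell by 0.51, with 0.13 and no call by library size. PC, which carboxylates pyruvate, and SLC2A13, an inositol transporter of the glucose transporter family, rose by 1.15 and 2.25. FBP1, TIGAR, PGM2 and MPC1 were also lower by library size.

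Since the cultures differed in oxygen, 23 genes outside the pathway, called oxygen-responsive here, are set beside the members. They include genes of the HIF subunits themselves, namely HIF1A, EPAS1 and ARNT, which fell by 0.63, 4.14 and 1.31. By library size HIF1A was not called. Of the 23, 10 rose in primed cells (43.5%, against 37.4% of all genes) and 11 fell (47.8%, against 32.6%). Their median log2 fold change was -0.07. By library size 12 rose (52.2%, against 56.2% of all genes) and 7 fell (30.4%, against 16.3%). NDRG1, a stress gene induced by low oxygen, had 327 and 332 counts in naïve and 12 and 20 in primed libraries and fell by 4.66 (adjusted p = 2.30e-20). EPAS1, which encodes HIF-2 alpha, fell by 4.14, the prolyl hydroxylase EGLN3 by 2.16 (log2 fold change -0.59 on its MANE Select transcript) and the angiogenic factor VEGFA by 1.47. MXI1, EGLN1, FAM162A and the mitophagy receptor BNIP3L rose, by 1.08, 0.98, 0.88 and 0.83.

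**Figure D5:**
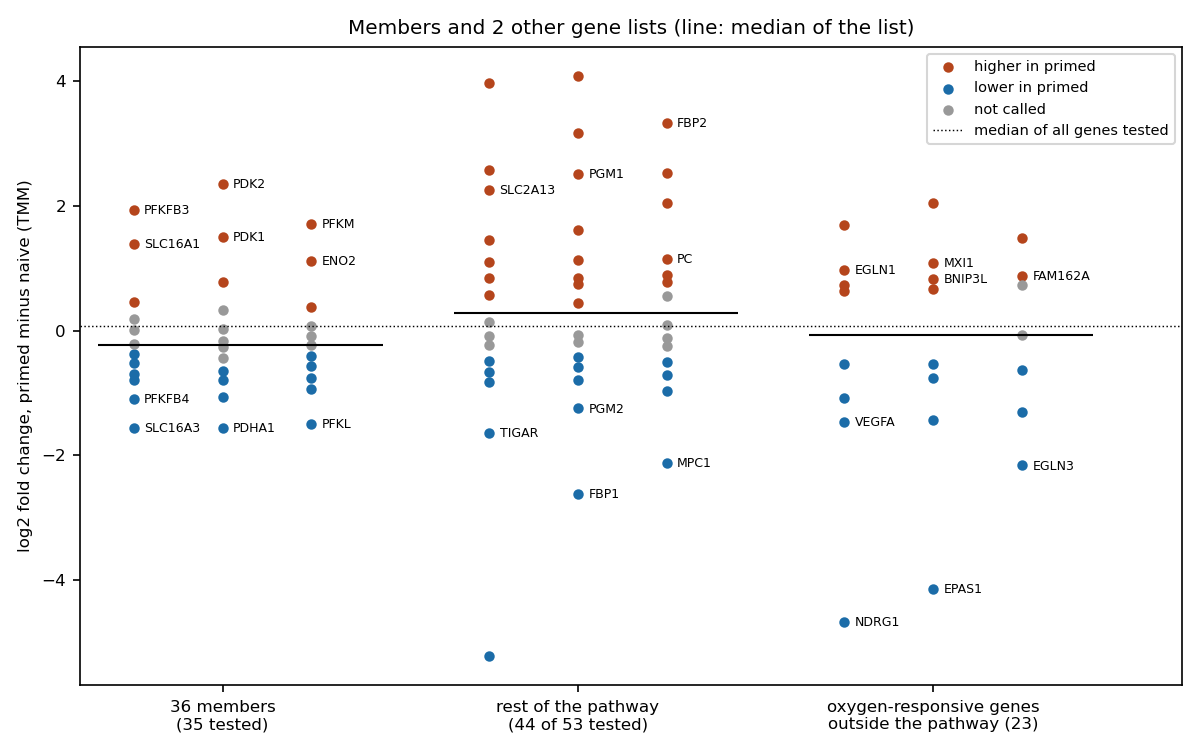
Log2 fold change (primed minus naïve, TMM) of the members, of the other genes of the pathways and of oxygen-responsive genes outside them, with genes higher in primed in red-brown, lower in blue and not called in grey; horizontal lines are list medians and the dotted line is the median of all genes tested. All 3 lists hold calls in both directions, with medians of -0.24, 0.29 and -0.07 beside 0.08 for all genes.

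The core letters of the HIF binding motif were searched for in promoters of RefSeq genes on GRCh38.p14, as the 250 bases before a start. ACGTG or GCGTG on either strand was present in 43.2% of all 35116 windows. A window at the start of the MANE Select transcript was found for 27 members, and 19 of these (70.4%) held the motif: 5 of 6 that rose, 9 of 13 that fell and 5 of 7 that were not called, with PDK4 untested. The 43.2% takes in every window of a gene, such as 7 for HK1, with no selection for expression. The members were taken only at the MANE Select start, so these shares are not like for like. The windows of LDHA and LDHB are shown since their ratio shifted between the states, and those of PDK1 and PFKFB4 since these rose and fell, with the motif in capitals, also on the other strand where it reads CACGT or CACGC. They lie at chr11:18394313-18394562 (plus), chr12:21657843-21658092 (minus), chr2:172555840-172556089 (plus) and chr3:48556804-48557053 (minus).
LDHA: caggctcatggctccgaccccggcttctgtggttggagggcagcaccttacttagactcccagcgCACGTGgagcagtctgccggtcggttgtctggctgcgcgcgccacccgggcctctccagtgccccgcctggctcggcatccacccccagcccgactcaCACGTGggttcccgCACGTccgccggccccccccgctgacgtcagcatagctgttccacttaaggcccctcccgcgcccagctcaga
LDHB: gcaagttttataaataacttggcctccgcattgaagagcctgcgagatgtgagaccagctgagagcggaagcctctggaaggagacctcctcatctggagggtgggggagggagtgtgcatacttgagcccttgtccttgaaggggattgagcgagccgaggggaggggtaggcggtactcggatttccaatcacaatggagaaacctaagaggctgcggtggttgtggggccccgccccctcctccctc
PDK1: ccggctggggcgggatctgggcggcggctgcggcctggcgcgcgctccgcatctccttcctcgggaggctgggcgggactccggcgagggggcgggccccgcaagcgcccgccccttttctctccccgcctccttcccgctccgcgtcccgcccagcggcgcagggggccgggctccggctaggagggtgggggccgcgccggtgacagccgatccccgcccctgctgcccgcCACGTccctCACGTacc
PFKFB4: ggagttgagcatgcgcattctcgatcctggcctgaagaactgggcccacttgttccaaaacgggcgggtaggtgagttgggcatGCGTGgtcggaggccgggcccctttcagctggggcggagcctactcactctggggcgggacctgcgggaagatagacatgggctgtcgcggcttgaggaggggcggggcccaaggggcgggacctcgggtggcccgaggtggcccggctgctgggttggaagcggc
LDHA held 5 matches, PDK1 2, PFKFB4 1 and LDHB 0. A CACGTG reads as the motif on both strands and was counted as 2 matches. LDHA held CACGTG, and PDK1 and PFKFB4 did not, so fewer separate sites than matches lie in the LDHA window. A match is a run of letters and not a bound site, and members in both directions held it.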

How the data were processed

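The authors aligned Nanopore cDNA reads to GRCh38 with minimap2 and counted alignments on transcripts of Ensembl release 105 with featureCounts 2.0.0. Per the file headers, the deposited values are raw counts over whole transcript spans, with strand ignored and each alignment counted at every place and for every transcript it overlaps. Of 244825 transcripts, 242542 had an identifier in GENCODE release 44, and the others held 1.0% of the counts. The count of a gene is that of its transcript with the largest mean. A gene was kept where 2 libraries or more had 10 counts or more, and tested with edgeR 4.0.16 (TMM, quasi-likelihood, Benjamini-Hochberg over all genes, 0.05, two-sided), with R 4.3.3. Isoform usage was tested with diffSpliceDGE, with a change of fraction beyond 0.1. Both were tested on simulated data. Where a library has 0 counts, up to 3 are possible (0.0968 to 0.127 CPM of gene-level sizes). Replicates were distinct libraries, with chi-square per degree of freedom of 13.2 (naïve) and 8.62 (primed). All 36 members are named; full values are given for leading isoenzymes, shares that moved by over 10 points and the 10 widest calls, and up to 4 genes per direction for other lists, with a mean count of at least 50. The genes on overlapping spans, and the isoforms ALDOA-204 and SLC2A3-209, were picked with their values in view. The members and lists were chosen with earlier results of these data known. Alternatives were library size, DESeq2 1.42.0, a replicate block, other filters, MANE Select or summed transcripts, a fold threshold, and each library left out.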

Additional observations from a re-analysis of the deposited data

How the results depend on the processing

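Over the alternatives, member counts higher and lower in primed libraries were 8 to 10 and 11 to 16 outside library size (19 and 5) and a log2 fold change beyond 1 (6 and 5). Leaving out a library gave 8 to 10 members higher and 11 to 16 lower. For the other genes of the pathways it gave 16 to 19 higher and 8 to 12 lower, the 8 without primed replicate 2, and for oxygen-responsive genes 10 higher and 8 to 10 lower. With library size 6 other pathway genes and 7 oxygen-responsive genes were lower, and with a log2 fold change beyond 1 these were 5 and 7, with 4 oxygen-responsive genes higher. The families with another leading isoenzyme were 2 as reported and without any library, 0 with MANE Select transcripts, 4 with summed transcripts and 3 without division by length, which drops the kinases and adds lactate dehydrogenase and the PFKFB enzymes. MANE Select transcripts without division by length, an alternative chosen after seeing the data, gave 2 (LDHA to LDHB and PDK3 to PDK1). Without the threshold on isoform fraction 21 member isoforms passed.

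Values that changed sign by library size were HK2 0.3797, ENO3 0.2642, SLC2A3 0.06585, PFKFB2 0.2006, GPI 0.4046, TPI1 0.2413, GAPDH 0.4853, PGK1 0.4256, PGAM1 0.5615 and PGD 0.1225, in log2 fold change. On MANE Select transcripts they were ENO3 2.193 and PDK3 -0.0428. With DESeq2 they were ENO1 -0.03555 and LDHA -0.02011, and with summed transcripts ENO1 -0.03691 and LDHA -0.01363. A filter of 50 counts gave PGAM1 0.01799. Over the fits that left out 1 library, signs changed within the ranges of HK2 (-0.4594 to 0.01539), ALDOC (-0.01867 to 0.6193), ENO1 (-0.1191 to 0.2417), LDHA (-0.1461 to 0.2424), GAPDH (-0.3496 to 0.07283), PGAM1 (-0.2705 to 0.1624) and PKM (-0.07028 to 0.316). Of all these genes, ENO3, TPI1, SLC2A3, PGD and PDK3 were called as reported, and the cause was not tested.

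The replicate numbers were not shown to pair libraries (correlation of deviations 0.03). A replicate block gave 10 members higher and 16 lower, adding ALDOC and PFKFB2. With 1 library left out, the lone library is assumed to vary like the others.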
